A study of Mus musculus with 24 samples.

Results

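The genes described here are the receptor chains for IL-2 and its relatives that share the common gamma chain. They were taken as every probe whose symbol in the deposited table was Il2, Il2ra, Il2rb, Il2rg, Il4ra, Il7r, Il21r or Il15ra. Of these 8 genes 7 had probes, 14 in all, among 25697 probes for 17872 genes, and 12 of the 14 were detected on at least 1 array. Il2 itself is not analysed here. The cells were CD4+ T cells of WT mice and of mice whose Pbrm1 gene, which encodes the PBAF subunit BAF180, was deleted in T cells by a Cre transgene under the CD4 promoter. The labels give the mice as Balb/c, aged 4 to 6 weeks, whereas the methods of the study describe a mixed B6-129 background and BAF180 fl/fl mice. Each genotype was measured in 4 states on 3 arrays, labelled A, B and C, so that 8 groups make up 24 arrays. Resting Naïve cells were CD4+CD62L+ cells purified to 95% from spleen and lymph nodes. Stimulated Naïve cells had spent 24 h on antibodies to CD3 (1 µg/ml) and to CD28 (2 µg/ml), with no cytokine named. Resting Th2 cells had grown on the same antibodies with IL-4 at 10 ng/ml and anti-IFN-gamma at 10 µg/ml, and received IL-2 at 100 U/ml from 24 h on. Stimulated Th2 cells were the same cells after 1.5 h with PMA (50 ng/ml) plus ionomycin (500 ng/ml). Thus every Th2 array came from cells that had been given IL-2 and IL-4, and no Naïve array did.

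The common gamma chain, encoded by Il2rg, is a signaling subunit of the receptors for IL-2, IL-4, IL-7, IL-9, IL-15 and IL-21. IL-2 binds with high affinity when the alpha chain (Il2ra, CD25) joins the beta chain (Il2rb) and the gamma chain, and IL-15 uses the same beta and gamma chains with its own alpha chain, Il15ra. The IL-7 receptor alpha chain (Il7r, CD127) carries a survival signal for resting T cells and is known to be lost upon T cell receptor stimulation, while CD25 is a classical activation marker. JAK1 and JAK3 act below these receptors, with STAT5 after IL-2, IL-7 and IL-15, STAT6 after IL-4 and STAT3 after IL-21.

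The 50-base probes define what was measured. The first 30 bases of the brightest probe of each gene are given because the levels rest on these probes.
Il2ra, ILMN_1233474: gtcttcccttcttcccattagtaataatag
Il2rb, ILMN_1246541: tttatgtgttcttgggcgatgctggtctat
Il2rg, ILMN_2886646: tccactttctttgaagagagtcttaccctg
Il7r, ILMN_2680827: gggactgcatgcaatgtaacattactggtt
Il4ra, ILMN_2738433: ctccgctcagttgtagaaagcaacaaggac
For Il21r and Il15ra the brightest probe overlapped another probe of the gene, and the bases that both share within their first 30 are in capitals.
Il21r, ILMN_2603242: cccctgattCTGGACTTGCACCTGACTGAA
Il21r, ILMN_1259867: CTGGACTTGCACCTGACTGAActcctgccc
Il15ra, ILMN_1220603: ccaGCTGCGCCTGGACACAGGAGAAAGCCC
Il15ra, ILMN_1249759: GCTGCGCCTGGACACAGGAGAAAGCCCaat
Over the full length the 2 Il21r probes share 41 bases and the 2 Il15ra probes 47, so neither pair is an independent measurement. In the RefSeq promoter table (GRCm38.p6) Il2ra and Il15ra start 62.5 kb apart on chromosome 2, and Il4ra and Il21r 51.2 kb apart on chromosome 7.

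Levels are log2 intensities after background correction and quantile normalization. Undetected probes of these genes lay from 4.16 up to at least 4.68. Detected means a detection p of at most 0.02. Values of a group are given for arrays A, B and C and then as mean ± SD (n = 3). Levels of different probes are not comparable with each other, and in these bulk samples fewer cells with a transcript cannot be told apart from less transcript per cell. The brightest Pbrm1 probe, which checks the genotype, was lower in BAF180-deficient cells in all 4 states without overlap, by 1.00 in resting Naïve cells to 1.83 in resting Th2 cells (log2). All 8 CD4 T cell markers were detected on every array. Myeloid transcripts were prominent in resting Naïve cells only: the summed linear intensity of 6 myeloid markers was 1360 to 4370 in WT and 1570 to 1990 in BAF180-deficient resting Naïve cells and at most 61.6 on any other array. Lyz2, a lysozyme of myeloid cells, had a mean log2 level of 9.62 in WT resting Naïve cells and was detected on no array of the other states. The 6 B cell markers summed to 304 to 716 in WT and 283 to 896 in BAF180-deficient resting Naïve cells, with Pax5 undetected, and to 23.0 to 428 in the other groups. Of 2 CD8 T cell markers Cd8a was detected on no array and Cd8b1 on every array. Cd8b1 averaged 8.43 in WT and 8.29 in BAF180-deficient resting Naïve cells, and 7.85 and 6.92 in resting Th2 cells. Of 5 NK cell markers Ncr1 and Gzma were detected on no array. Klrd1 averaged 7.34 in WT and 6.82 in BAF180-deficient resting Naïve cells and at most 4.96 in the other groups. The part of any of these cells in the differences below was not tested. The activation marker Cd69 averaged 11.74 in WT resting Naïve, 10.29 in stimulated Naïve, 7.42 in resting Th2 and 9.70 in stimulated Th2 cells. In stimulated against resting WT Naïve cells Cd69 (-1.45) and Icos (-1.1) were lower, and Tnfrsf4 (2.17), Egr2 (2.19) and Tfrc (1.3) higher (limma adjusted p below 0.05).

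**Figure D1:**
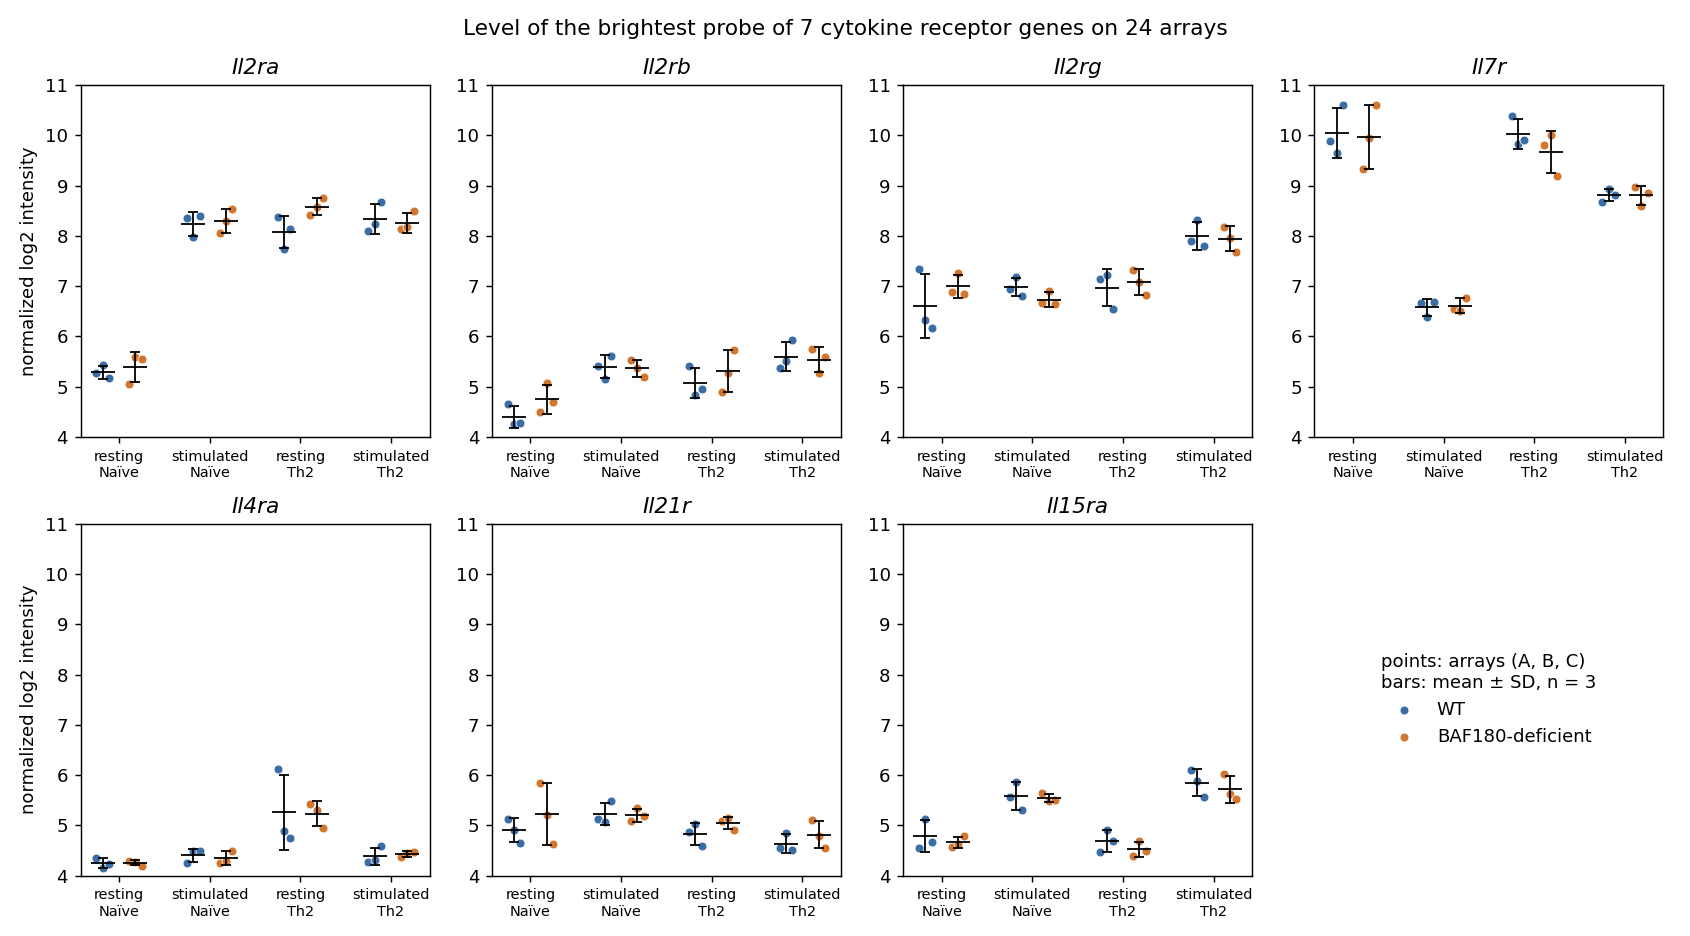
Normalized log2 intensity (y axis) of the brightest probe of each gene in the 4 states (x axis), with 1 point per array and the mean ± SD of 3 arrays as bars. Il2ra rises from about 5.29 to above 8 in the other 3 WT states, Il7r falls from 10.05 to 6.58 upon stimulation of WT Naïve cells, and the genotypes lie close together in all panels.

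Il2ra was the member with the largest rise. The deposited annotation of its probe gives no Entrez ID or chromosome. Like Il2rb, Il2rg and Il4ra it had a single probe, so no other probe could check its level. In WT cells its level was 5.28, 5.44 and 5.17 (5.29 ± 0.13) in resting Naïve cells and 8.35, 7.97 and 8.40 (8.24 ± 0.24) after 24 h on anti-CD3 and anti-CD28. All stimulated arrays lay far above all resting ones, a difference of 2.95 on the log2 scale (SE 0.20), or 7.70-fold (limma, adjusted p = 2.6e-10). BAF180-deficient Naïve cells went from 5.06, 5.59 and 5.56 to 8.06, 8.30 and 8.53, a difference of 2.89 (SE 0.20, limma adjusted p = 3.8e-10). Resting Th2 cells held a level like that of stimulated Naïve cells, with 8.37, 7.73 and 8.13 (8.07 ± 0.32) in WT and 8.42, 8.58 and 8.76 (8.58 ± 0.17) in BAF180-deficient cells. The differences from resting Naïve cells were 2.78 and 3.18 (limma adjusted p = 8.2e-10 and 9.7e-11). PMA and ionomycin gave 8.09, 8.23 and 8.67 in WT and 8.14, 8.17 and 8.49 in BAF180-deficient Th2 cells, which overlapped the resting Th2 arrays of the same genotype. The differences, 0.26 in WT and -0.32 in BAF180-deficient cells, did not pass the test (limma adjusted p = 0.405 and 0.267), and their 95% intervals were -0.15 to 0.66 and -0.73 to 0.09. The order of the WT states was therefore resting Naïve cells below the other 3, whose neighbours did not differ beyond their spread. Of 6 regulatory T cell markers, all detected on every array, 2 were higher and 3 lower in resting Th2 than in resting Naïve WT cells (Foxp3 -2.86, Ikzf2 -2.45, Nrp1 -1.97, Tnfrsf18 1.57, Ikzf4 0.74). Their summed intensity was 1140 to 1550 in resting Naïve, 1000 to 1240 in stimulated Naïve and 1460 to 2040 in resting Th2 WT cells. Tnfrsf18 weighed most in this linear sum, with mean log2 levels of 8.96, 9.48 and 10.54 in these groups. Foxp3 averaged 8.68, 7.35 and 5.82, so the sum does not follow Foxp3.

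Il2rb, the beta chain of the IL-2 and IL-15 receptors, was dim. In WT resting Naïve cells it was detected on no array (4.65, 4.26 and 4.27), and in BAF180-deficient ones on 1 of 3 (4.50, 5.07 and 4.69). After stimulation it was detected on all arrays of both genotypes, at 5.41, 5.16 and 5.62 in WT and 5.53, 5.37 and 5.19 in BAF180-deficient cells. Neither pair of groups overlapped. The WT rise was at least 1.47-fold, where the undetected arrays were set to the lowest intensity of any detected probe on them or the probe's own if higher, and its fitted difference was 1.00 (SE 0.22, limma adjusted p = 0.000754). The BAF180-deficient difference was 0.61 (limma adjusted p = 0.0285), a call that was lost without resting Naïve array A or C or stimulated Naïve array A or B (adjusted p between 0.0661 and 0.126). Resting Th2 cells measured 5.41, 4.83 and 4.96 in WT, at least 1.17-fold above resting Naïve cells (limma adjusted p = 0.0199), which did not hold without resting Th2 array A or resting Naïve array B or C (adjusted p = 0.120, 0.0670 and 0.0576). BAF180-deficient resting Th2 cells measured 4.90, 5.28 and 5.74, and the difference of 0.55 missed the threshold (limma adjusted p = 0.0533) but passed without resting Th2 array A or resting Naïve array B (0.0165 and 0.0286). In stimulated Th2 cells it measured 5.37, 5.51 and 5.93 in WT and 5.75, 5.28 and 5.59 in BAF180-deficient cells, the highest means of the 4 states. Under Z-score normalization or scaling to equal medians neither the BAF180-deficient rise in Naïve cells (adjusted p = 0.148 and 0.0879) nor the WT rise in resting Th2 cells (0.0845 and 0.105) passed. The WT difference from resting Th2 cells, 0.53, missed the threshold (limma adjusted p = 0.0762) and passed without resting Th2 array A (0.0342). Across the 24 arrays the level of Il2rb correlated with that of Il2ra at r = 0.82, the closest pair among the 7 genes; the arrays share 8 groups and 1 normalization, so this is a description.

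Il2rg, the common gamma chain, was highest in stimulated Th2 cells of both genotypes. In WT Th2 cells it went from 7.14, 7.22 and 6.55 (6.97 ± 0.37) at rest to 7.89, 8.32 and 7.79 after 1.5 h, with no overlap. The difference was 1.03 (SE 0.25), or 2.04-fold (limma adjusted p = 0.00368). In BAF180-deficient Th2 cells it went from 7.33, 7.09 and 6.82 to 8.18, 7.96 and 7.68, a difference of 0.86 (limma adjusted p = 0.0139) that missed the threshold without stimulated Th2 array A or resting Th2 array C (0.0704 and 0.0647) and under scaling to equal medians (0.35, adjusted p = 0.480). Stimulated Th2 cells also stood above stimulated Naïve cells, by 1.02 in WT and 1.21 in BAF180-deficient cells (limma adjusted p = 0.00579 and 0.00150, the latter 0.0663 under scaling). In Naïve cells the WT resting arrays were far apart, at 7.34, 6.32 and 6.16 (6.61 ± 0.64), and the stimulated ones were 6.95, 7.18 and 6.81. The difference of 0.37 did not pass (limma adjusted p = 0.252) but did without resting Naïve array A (0.75, adjusted p = 0.0103), and the same array decided the comparison of resting Th2 with resting Naïve cells (0.36, adjusted p = 0.287, against 0.74 and 0.0163 without it). Both WT differences also passed under scaling (1.21 and 1.14, adjusted p = 0.00503 and 0.0107) and under Z-score normalization (0.0318 and 0.0351). Scaling itself moved the median of all probes up by 0.23 and 0.28 in these comparisons. BAF180-deficient Naïve cells measured 6.89, 7.26 and 6.84 at rest and 6.66, 6.90 and 6.64 after stimulation, a difference of -0.26 that did not pass (limma adjusted p = 0.434).

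Il7r had the largest fall. WT resting Naïve cells measured 9.89, 9.65 and 10.61 (10.05 ± 0.50) and stimulated Naïve cells 6.67, 6.38 and 6.69 (6.58 ± 0.17). The groups were far apart, and the level fell by 3.47 on the log2 scale (SE 0.27), or 11.1-fold (limma adjusted p = 2.6e-09). In BAF180-deficient cells the resting arrays measured 9.33, 9.95 and 10.61 and the stimulated ones 6.55, 6.50 and 6.77. The level fell by 3.36 or 10.2-fold (limma adjusted p = 4.6e-09). Resting Th2 cells were again at the resting Naïve level, with 10.38, 9.82 and 9.90 (10.03 ± 0.30) in WT and 9.80, 10.00 and 9.19 (9.66 ± 0.42) in BAF180-deficient cells. PMA and ionomycin brought WT Th2 cells to 8.68, 8.93 and 8.82, a fall by 1.22 (limma adjusted p = 0.00168). BAF180-deficient Th2 cells reached 8.97, 8.60 and 8.86, a fall by 0.85 (limma adjusted p = 0.0238). Under scaling to equal medians neither fall passed (adjusted p = 0.265 and 0.0721). The BAF180-deficient call also did not hold without resting Th2 array A or B or stimulated Th2 array B (adjusted p between 0.0847 and 0.123). Stimulated Th2 cells thus lay 2.23 above stimulated Naïve cells in WT and 2.20 above them in BAF180-deficient cells (limma adjusted p = 5.1e-06 and 6.1e-06). For every gene, this comparison also differs in stimulus and in its length (1.5 h against 24 h), which cannot be told apart from cell type. In WT cells resting Naïve and resting Th2 cells did not differ beyond their spread (0.01), and each further step down, to stimulated Th2 and then to stimulated Naïve cells, passed the test. A second probe, further upstream in the transcript, correlated with the first at 0.96, placed the WT states alike except that resting Th2 cells (8.22) lay slightly above resting Naïve cells (8.11), and fell by 3.18 in WT Naïve cells. For restimulated BAF180-deficient Th2 cells it gave a difference of -0.58 that did not pass (limma adjusted p = 0.325), and the third Il7r probe was detected on no array.

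Il4ra, the IL-4 receptor alpha chain, was detected almost only in resting Th2 cells. It had a single probe, which was dim, with a mean level of 4.57 over all arrays and detected on 7 of them. A lack of detection by this probe therefore does not show that the transcript was absent, and no other probe could check it. Il4ra was detected on none of the 12 Naïve arrays, where it lay between 4.16 and 4.50. In resting Th2 cells it was detected on all 6 arrays, at 6.13, 4.90 and 4.76 (5.26 ± 0.75) in WT and 5.42, 5.31 and 4.94 (5.23 ± 0.25) in BAF180-deficient cells. WT array A stood far above the others. The rise from resting Naïve cells was at least 1.34-fold in WT and at least 1.35-fold in BAF180-deficient cells (limma adjusted p = 0.00185 and 0.00263). After 1.5 h of PMA and ionomycin it was detected on 1 of 6 arrays, at 4.27, 4.31 and 4.59 in WT and 4.37, 4.46 and 4.48 in BAF180-deficient cells. It fell by 0.87 in WT (limma adjusted p = 0.00694) and at least 1.49-fold in BAF180-deficient cells (limma adjusted p = 0.0142), where the call was lost without resting Th2 array A or B (adjusted p = 0.0696 and 0.0545). With only the 6 WT arrays of each comparison in the fit, neither WT call passed (adjusted p = 0.0789 for the rise and 0.120 for the fall), and under scaling to equal medians the WT fall missed the threshold (0.0585).

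Il15ra, the IL-15 receptor alpha chain, rose upon both kinds of stimulation. In WT Naïve cells it went from 4.55, 5.13 and 4.68 (4.79 ± 0.31) to 5.57, 5.86 and 5.30 (5.58 ± 0.28), and in WT Th2 cells from 4.48, 4.92 and 4.70 (4.70 ± 0.22) to 6.11, 5.88 and 5.56 (5.85 ± 0.27). No stimulated array overlapped the resting ones. The differences were 0.79 in Naïve and 1.15 in Th2 cells (limma adjusted p = 0.00126 and 5.4e-05). In BAF180-deficient cells they were 0.88 and 1.19 (limma adjusted p = 0.000489 and 4.2e-05), with 5.64, 5.49 and 5.51 in stimulated Naïve and 6.02, 5.62 and 5.52 in stimulated Th2 cells. The probe was detected on every stimulated array. At rest it was detected on 2 of 3 WT and 1 of 3 BAF180-deficient arrays, in Naïve and in Th2 cells alike. Resting Naïve and resting Th2 cells did not differ beyond their spread in either genotype, nor did the 2 stimulated states. The other 3 probes of the gene also had higher means after both stimulations, with correlations of 0.75 to 0.90 between pairs of the 4 probes. Unlike the brightest, ILMN_1236536 was lower in stimulated Th2 (4.74 in WT, 4.56 in BAF180-deficient) than in stimulated Naïve cells (4.84 and 4.79). Thus Il2ra and its neighbour on chromosome 2 both rose in stimulated Naïve cells, but in resting Th2 cells Il2ra stayed high and Il15ra was at its resting level.

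Il21r, the IL-21 receptor, was dim. Its brightest probe lay between 4.51 and 5.85 over all arrays and passed the test in none of the 4 comparisons of states in either genotype. WT stimulated Th2 cells (4.56, 4.86 and 4.51) lay below WT stimulated Naïve cells (5.13, 5.07 and 5.48) without overlap, by 0.58 (limma adjusted p = 0.0744). It passed with the replicate letter as a block (adjusted p = 0.0461) and with only these 6 arrays in the fit (0.0440), and under scaling the WT rise in stimulated Naïve cells did (0.62, adjusted p = 0.0326). Scaling itself moved the median of all probes up by 0.23 in stimulated against resting WT Naïve cells. For WT stimulated Th2 against stimulated Naïve cells the overlapping second probe gave -0.45 (limma adjusted p = 0.0984). The probes disagreed on resting Th2 against resting Naïve WT cells, with -0.07 for the brightest and -0.53 for the second probe, which passed the test (limma adjusted p = 0.835 and 0.0296). The third Il21r probe was detected on no array.

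**Figure D2:**
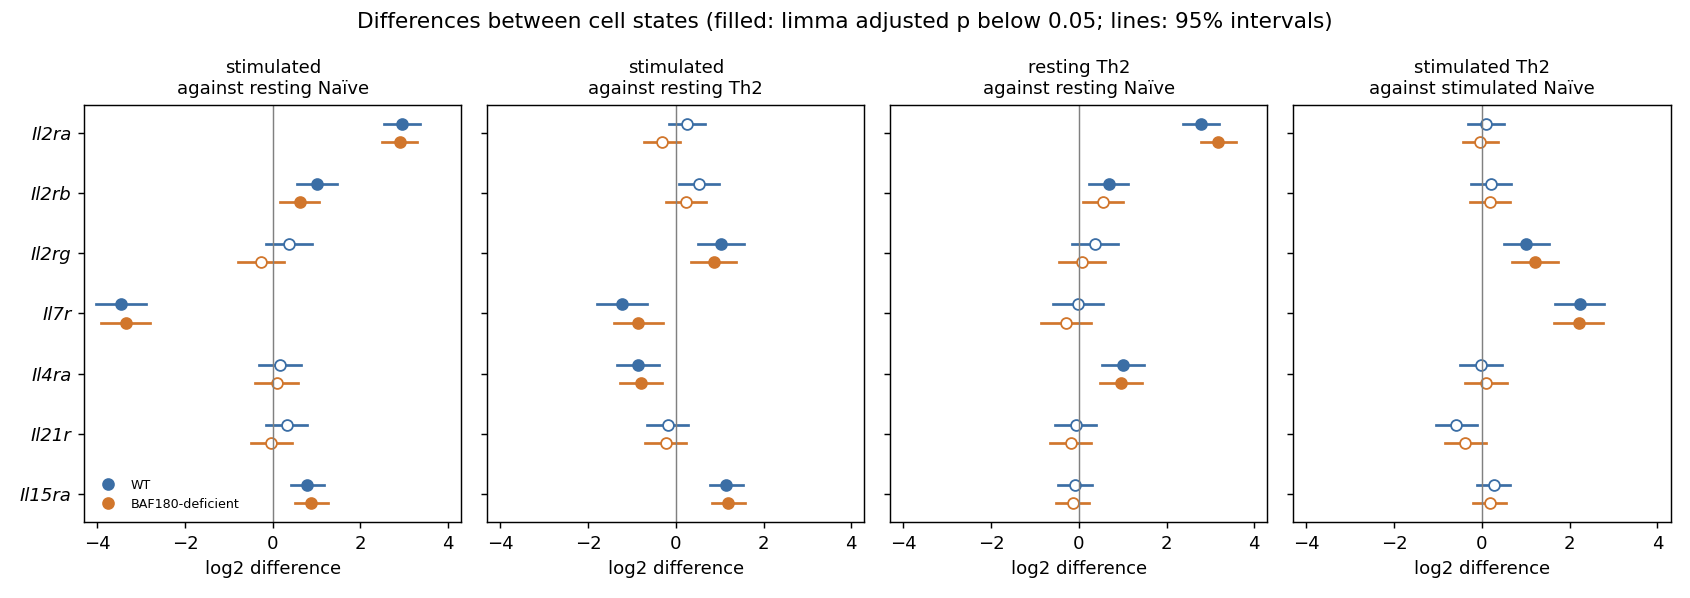
Log2 difference between states (x axis) for each gene (y axis), for WT and BAF180-deficient cells, with 95% intervals; filled points passed at an adjusted p below 0.05. Il2ra and Il7r move in opposite directions by about 3 in Naïve cells, and Il2rg and Il15ra rise in restimulated Th2 cells while Il7r and Il4ra fall.

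Upon stimulation of Naïve cells 4 of the 7 genes passed the test in WT (Il2ra, Il2rb and Il15ra up, Il7r down), where 43.7% of all probes did (23.6% up, 20% down). The same number passed in BAF180-deficient cells, against 41.6% of all probes (22.3% up, 19.3% down). Upon restimulation of Th2 cells 4 of 7 passed in WT (Il2rg and Il15ra up, Il7r and Il4ra down), against 27.3% of all probes (13% up, 14.3% down), and 4 in BAF180-deficient cells, against 25.8% (12% up, 13.8% down). Between resting Th2 and resting Naïve cells 3 of 7 were higher in WT Th2 cells, against 34.6% of all probes in either direction (18.5% up, 16% down), and 2 of 7 in BAF180-deficient cells, against 34.7% (18.8% up, 15.9% down). Between stimulated Th2 and stimulated Naïve cells Il2rg and Il7r were higher in Th2 cells of both genotypes, 2 of 7, against 20.1% of all probes in WT (9.05% up, 11.1% down) and 20.5% in BAF180-deficient cells (9.37% up, 11.2% down). In these 4 comparisons the arrays of the groups did not overlap for 48.2%, 40.3%, 42.9% and 34.9% of all probes in WT and for 48.1%, 42.9%, 49.6% and 33.7% in BAF180-deficient cells.

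Among the 21 steps between neighbouring states in the order of levels, 7 passed in WT and 6 in BAF180-deficient cells. Some of these steps compared stimulated Naïve with resting Th2 cells, where 22.3% of all probes passed in WT and 20.5% in BAF180-deficient cells, or stimulated Th2 with resting Naïve cells, where 48.4% and 46.4% did. With single arrays left out the steps that passed numbered 5 to 8 in WT and 4 to 7 in BAF180-deficient cells.

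Between the genotypes none of the 7 genes was counted in any of the 4 states. A gene was counted when its difference exceeded 1.5 SD of all probe differences (the Z-ratio), with an FDR below 0.3 and a p below 0.05 from limma. Of all probes 0.653% were counted in resting Naïve, 0.0772% in stimulated Naïve, 0.0842% in resting Th2 and 0.0913% in stimulated Th2 cells. At shares this low a count of none among 7 genes is near that of all probes and says little about these genes. Of the 28 differences between genotypes 1 had an unadjusted limma p below 0.05. That was Il2ra in resting Th2 cells, where the BAF180-deficient arrays (8.42, 8.58 and 8.76) lay above the WT arrays (8.37, 7.73 and 8.13) without overlap. In that comparison 10.1% of all probes were without overlap, in either direction. For the other 3 states no member was without overlap, against 7.99% of all probes in resting Naïve, 6.46% in stimulated Naïve and 7.31% in stimulated Th2 cells. The difference was 0.51 (SE 0.20, 95% interval 0.10 to 0.92), or 1.42-fold, with a limma adjusted p of 1.00. Over the alternatives the difference ranged from 0.34 to 0.97 and its adjusted p from 0.428 to 1.00. In the same arrays the summed intensity of 6 regulatory T cell markers was 1460 to 2040 in WT and 1930 to 2830 in BAF180-deficient cells. Tnfrsf18 weighed most in this linear sum, with mean log2 levels of 10.54 and 10.88, against 5.82 and 6.78 for Foxp3. By gene the differences were 0.96 for Foxp3, 0.54 for Ikzf4, 0.34 for Tnfrsf18, 0.09 for both Ikzf2 and Ctla4 and -0.28 for Nrp1, and none passed (limma adjusted p of 0.500 for Foxp3 and 1.00 for the others). All 6 markers were detected on every array of both groups, and their part in the Il2ra difference was not tested.

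In resting Naïve cells the differences between BAF180-deficient and WT cells were 0.39 for Il2rg, 0.36 for Il2rb and 0.33 for Il21r, and all of these groups overlapped (limma adjusted p = 0.890, 0.863 and 0.914). Without WT array A the Il2rg difference was 0.76 and met the criteria (adjusted p = 0.238). The second Il21r probe gave -0.39 there, opposite to the first. In resting Th2 cells Il7r was 0.37 lower in BAF180-deficient cells with overlapping arrays, and its second probe was 0.59 lower without overlap, at 7.81 to 8.71 in WT and at most 7.74 in BAF180-deficient cells (limma adjusted p = 1.00 for both). The remaining 23 differences lay between -0.25 and 0.24. Over all 28 differences the 95% intervals reached from -0.94 to 0.92.

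**Figure D3:**
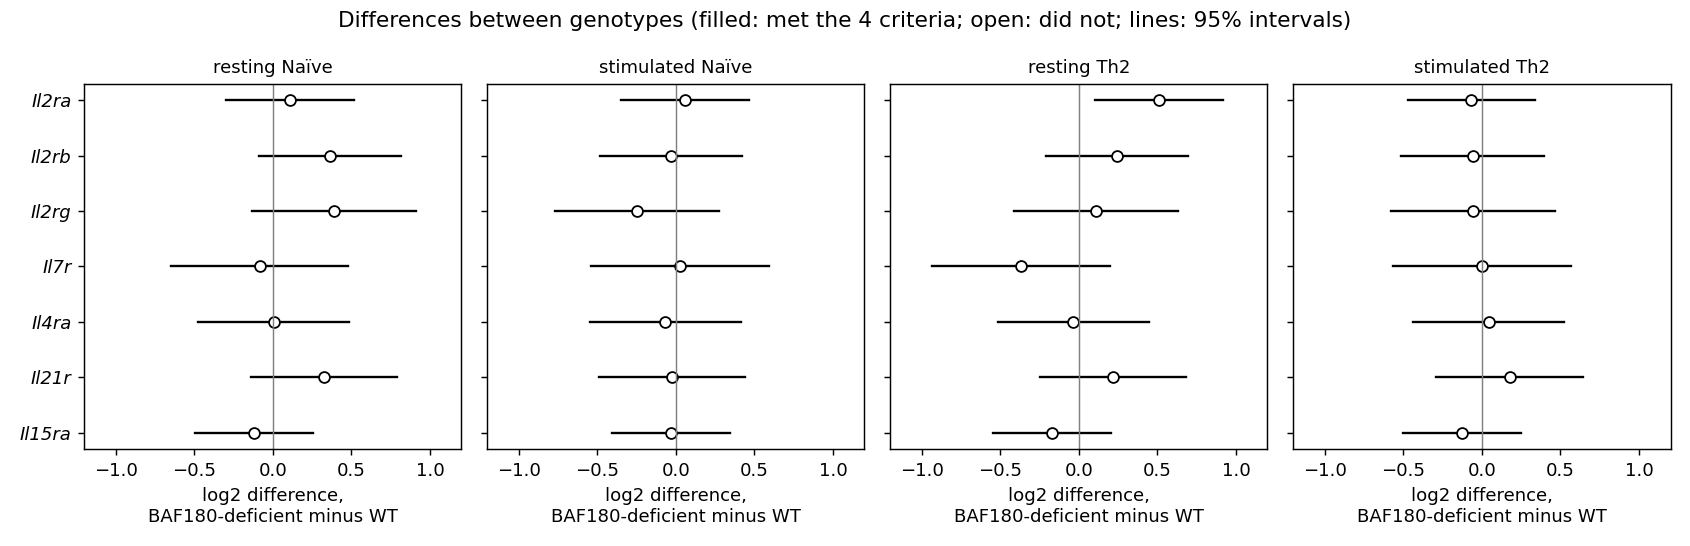
Log2 difference of BAF180-deficient minus WT cells (x axis) for each gene (y axis) in the 4 states, with 95% intervals; all points are open since none met the 4 criteria. The interval of Il2ra in resting Th2 cells, 0.10 to 0.92, lies above 0.

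Whether the response to stimulation differed between the genotypes was tested as an interaction. No member and no probe at all passed at an adjusted p below 0.05 in any of the 4 interactions (0% of probes). At an unadjusted limma p below 0.05 there was 1 member in 1 interaction: Il2ra upon restimulation of Th2 cells, -0.58 (SE 0.28), since WT cells changed by 0.26 and BAF180-deficient cells by -0.32. Its adjusted p was 1.00. The Il2rg response of Naïve cells differed by -0.64 (SE 0.35, limma adjusted p = 1.00), and the WT rise within it was larger without resting Naïve array A.

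Of the ligands of these receptors and their kin 4 of 7 listed genes were detected on at least 1 array, with a median difference of 3.44 upon restimulation of WT Th2 cells against 0.00 for all probes. There Il4, Il13 and Il21 passed the test, with rises of 4.70, 3.39 and 3.49, while Il15, a ligand mostly made by other cells, changed by 0.12. In WT resting Th2 cells Il4 was 2.46 higher than in resting Naïve cells, and Il15, detected on none of these Th2 arrays, was at least 2.86-fold lower. Of 4 other receptor chains Il12rb1, an IL-12 and IL-23 receptor chain, rose by 2.13 in stimulated WT Naïve cells, and Il13ra1, which pairs with IL-4R alpha on cells outside the T lineage, fell at least 2-fold, to below detection (median -0.50, or -0.43 with undetected genes at their bounds, 1 up and 2 down).

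The counts of the lists stand against the shares of all probes given above: 43.7% passed upon stimulation of WT Naïve cells (23.6% up, 20% down), 27.3% upon restimulation of WT Th2 cells (13% up, 14.3% down) and 34.6% between WT resting Th2 and resting Naïve cells (18.5% up, 16% down). Among 10 kept kinases, STATs and adaptors, 1 rose and 4 fell upon stimulation of WT Naïve cells (median -0.52), 5 of 10 and so near the share of all probes. Upon restimulation of WT Th2 cells 1 rose and 2 fell (median -0.13). The one that rose was Stat5a, by 1.04 and 2.97. Irs2, an adaptor of the IL-4 receptor, fell by 2.84 in Naïve cells, Pik3r1, a regulatory subunit of PI3 kinase, fell by 2.39 and, upon restimulation, fell by 1.88, and Jak3, which binds the common gamma chain, fell by 0.78 in Naïve cells. Of 6 feedback inhibitors 2 rose and 1 fell in stimulated WT Naïve cells (median 0.08, or -0.16 with the undetected gene at its bound): Cish rose by 2.03, Socs2 by 1.45, and Socs3 fell by 1.17. In resting Th2 cells Socs2 was 3.44 and Cish 1.67 higher than in resting Naïve WT cells (2 up, 2 down, median 0.15, or -0.14 with the bound). Restimulation lowered 3 of the 6 in WT (median -0.59), and Socs2 fell by 1.94.

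Of 11 genes known to be induced by IL-2 or STAT5, 6 were higher and none lower in resting Th2 than in resting Naïve cells of either genotype (median 0.67 in WT and 0.83 in BAF180-deficient cells, against 0.03 for all probes in both, and 0.49 in each genotype with undetected genes at their bounds). In WT these were Osm (1.48), Lta (1.05), Bcl2 (1.03), Mcl1 (0.74), Ccnd3 (0.67) and Lif (at least 1.40-fold, undetected in resting Naïve cells). Upon restimulation 5 rose and 4 fell in WT (median 0.04), with Lif up by 2.28 and Ccnd3 down by 3.49. Lif was the only gene of the 6 lists counted between the genotypes, 1.07 higher in BAF180-deficient than WT resting Th2 cells (limma adjusted p = 0.227). Of 13 known regulators of Il2 or Il7r transcription 3 rose and 7 fell in stimulated WT Naïve cells (median -0.53), against 23.6% up and 20% down over all probes. Gfi1, a repressor of Il7r, rose by 2.34, while Fos fell by 5.66, Klf2 fell by 5.61 and Junb fell by 3.30. Upon restimulation of WT Th2 cells 6 rose and 3 fell (median 0.23): Nfkb1 rose by 1.69 and Gfi1 by 1.40, while Klf2 was at least 21.4-fold lower, detected on none of the stimulated Th2 arrays.

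**Figure D4:**
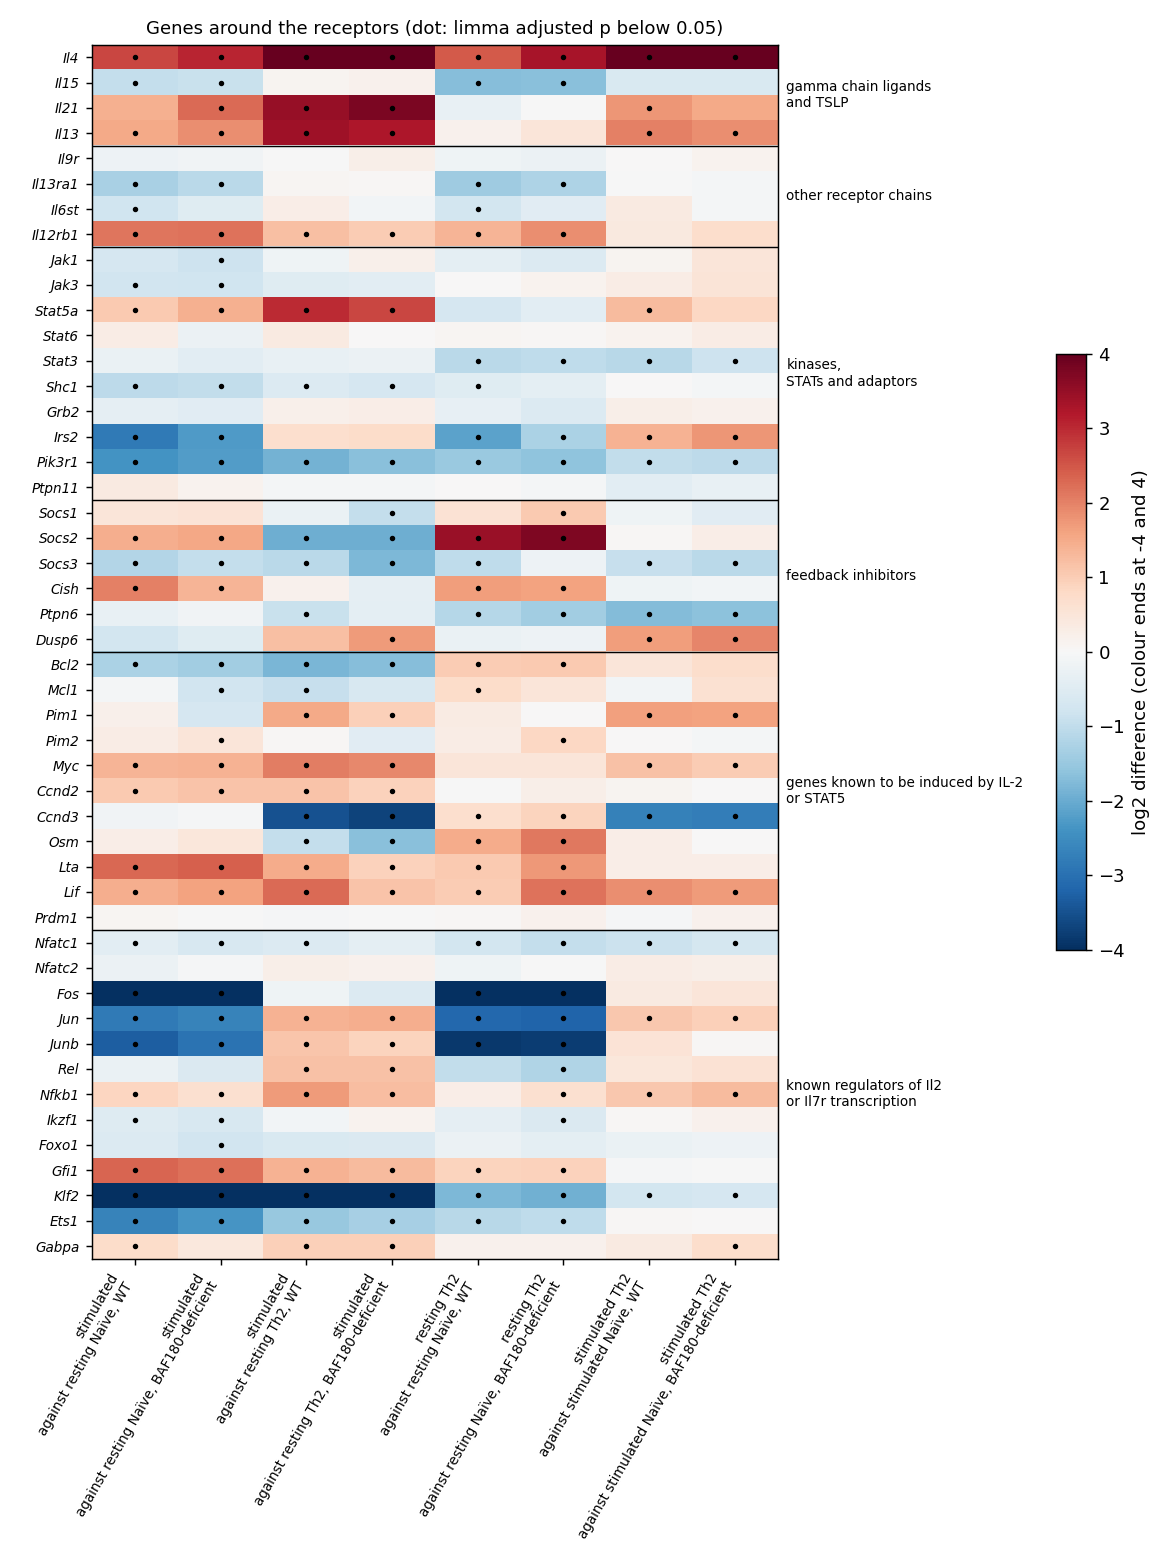
Log2 differences (colour, from -4 to 4) of the 48 kept genes of 6 lists around the receptors (rows) in 4 comparisons of states in each genotype (columns); dots mark an adjusted p below 0.05. The WT and BAF180-deficient columns of a comparison run in parallel, with Socs2 high in resting Th2 cells and Klf2 low after both stimulations.

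The genes whose levels across the 24 arrays were most like those of a receptor were sought among kept genes with an SD of at least 0.5. They were Gm6316, Ran and Gapdh for Il2ra (r = 0.959, 0.959 and 0.952), Hmga1, Lta and Urb2 for Il2rb (0.885, 0.866 and 0.866), and Mmp10, Snx9 and Csf1 for Il2rg (0.873, 0.863 and 0.855). For Il7r they were Itgb7, Itm2b and Ppp1r9b (0.961, 0.948 and 0.947), for Il4ra Fam229b, Akr1c12 and Gbp11 (0.913, 0.904 and 0.886), and for Il15ra Fubp1, Usp54 and Atad3a (0.942, 0.935 and 0.924). Il21r had no gene above 0.662 (Ubd). These correlations follow the differences between the 8 groups, which all genes on the arrays share. Among the receptors themselves Il7r and Il15ra were the most opposed pair (r = -0.65), and Il4ra and Il21r, neighbours on chromosome 7, were unrelated in level (-0.05).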

How the data were processed

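RNA of CD4+ T cells was measured on 24 Illumina MouseRef-8 v2 arrays. The authors deposited GenomeStudio (1.6.0 per the labels) intensities that were neither normalized nor background-subtracted, and the deposited detection p-values compare each probe with negative controls. Here intensities were corrected with neqc (offset 16, background inferred from detection p-values), quantile normalized and log2 transformed (limma 3.58.1, R 4.3.3). A probe entered the tests if any array gave it a detection p no higher than 0.02 (14246 of 25697). Quantile normalization forces equal distributions, so changes in total RNA cannot be seen. Symbols were updated to RefSeq by Entrez ID (16938 probes), accession (7420), synonym (552) or symbol (465), and 322 were kept as given.

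One linear model with 8 group means (16 residual degrees of freedom) served all contrasts, with Benjamini-Hochberg adjustment over the 14246 probes. Genotype differences used the 4 criteria of the methods with p and FDR from limma: Z-ratio beyond 1.5, FDR below 0.3, p below 0.05 and mean signal above 0. The last was not computed, since intensities corrected with the offset are all above 0, so it removed no probe. State differences used an adjusted p below 0.05. A gene was represented by its brightest probe. The named genes were the members, Pbrm1, and of the lists those with the largest differences past the test or needed by a sentence. The members and lists were chosen with earlier results of these data known. The calling was also run on simulated data, whose outcome is not reported here.

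Detected probes per array numbered 8047 to 10689, replicate arrays correlated at 0.962 to 0.992, and 3 arrays a group limit the precision. Nothing used here says that the arrays of a group came from separate mice, except a figure legend of the study that speaks of pairs of mice, so p-values measure the spread between these samples. The deviations of arrays with the same letter correlated between the genotypes at 0.302 (A), 0.136 (B) and 0.517 (C). The main fit, and so the p-values above unless a block is named, took no account of the letters. Letters read as pairs entered only as a block in an alternative.

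Alternatives were Z-score normalization, no background correction, median scaling, other detection filters, any probe of a gene, the letter as a block, only the arrays compared, another call rule, and leaving out each array.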

Additional observations from a re-analysis of the deposited data

How the results depend on the processing

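Of 45 differences of at least 0.3 between states, genotypes or interactions, 25 passed, and 16 of these passed with the same sign under every alternative that was run. Scaling to equal medians moved the median of all probes the most, by up to 0.49 (BAF180-deficient resting Th2 against resting Naïve cells). The share of calls that were higher, with scaling and without, was 83.1% and 54.1% in WT and 82.8% and 53.7% in BAF180-deficient cells upon stimulation of Naïve cells, 59.8% and 47.6% and 16.5% and 46.6% upon restimulation, 85.2% and 53.6% and 89.6% and 54.3% between resting Th2 and Naïve cells, and 68.5% and 45% and 34.9% and 45.7% between stimulated ones. Under it 2 differences changed sign, neither of which had passed: Il7r between genotypes in resting Th2 cells (0.12) and its interaction upon restimulation (-0.42). It called 2 members upon restimulation of Th2 cells in WT and 2 in BAF180-deficient cells, 4 in BAF180-deficient resting Th2 against resting Naïve cells and 1 in BAF180-deficient stimulated Th2 against stimulated Naïve cells. With the 4 criteria in place of an adjusted p, 2 members were called upon stimulation of Naïve cells in each genotype, 2 in WT and 1 in BAF180-deficient cells upon restimulation, and 1 in each genotype between resting Th2 and resting Naïve cells. Leaving out 1 array gave 2 to 4 members upon restimulation of BAF180-deficient Th2 cells (2 without resting array A or B) and 0 to 1 between genotypes in resting Naïve cells (1 without WT array A). Of 67 smaller differences 47 changed sign under at least 1 alternative, and none had passed.

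With the replicate letter as a block, over all arrays or within a state, 0 members were counted between genotypes in each state, also at an adjusted p below 0.05, an alternative chosen after seeing the data. The pairing changed 1 call, that of Il21r in WT stimulated Th2 against stimulated Naïve cells. A BeadChip block was not run, since the slides are not given in the sources used here. Signal over background limits Il2rb, Il4ra, Il21r and Il15ra most, as their resting levels lay near or below detection.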
